A study of Nothobranchius furzeri with 10 samples.

Results

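Skin RNA of the turquoise killifish, Nothobranchius furzeri, held a set of 117 genes that rose and fell between libraries with 1 widely varying gene, Nfu_g_1_006412. The set was drawn from 26739 genes in the count table. Members had at least 10 counts in each of the 10 libraries, a mean of 1 to under 1000 counts per 1e6 counts of the library (CPM), and a sample SD of log2(CPM + 1) of at least 1. They also had a Pearson r of at least 0.8 with Nfu_g_1_006412 on that scale, and Nfu_g_1_006412 itself is 1 of the 117. The members were thus chosen by measured values of the same 10 libraries, and their spread and correlation are described here and not tested.

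The turquoise killifish is an annual fish used as a short-lived vertebrate model of ageing. All libraries came from skin of male fish of the inbred GRZ strain, aged 10 weeks, with the perturbation given as swim-tunnel, in which water is driven past a fish so that it has to swim. They form 1 group, and no unexercised fish are among the samples used here. Nothing in the labels ties a library to a fish of its own, so part of the spread may be technical. The titles number the samples in sequence, with 1 number skipped between replicates 5 and 6. Fish skin is a layered tissue, with a living epidermis that holds mucus-secreting cells, a dermis with collagen, scales and pigment cells, and nerves and vessels below. Bulk RNA sums over all cells of a piece. Genes used by the same cells therefore tend to vary together when pieces differ in make-up, and so do genes that are switched on together. In such samples fewer cells of a type and less RNA per cell cannot be told apart.

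The files hold identifiers without gene names, and of these identifiers 0 had an entry in the reference gene table. No member can be given a name, a function or a sequence. For the same reason the tissue label could not be checked against skin markers. Library totals ran from 23206247 to 37149070 counts. The 2 most similar libraries still differed by a chi-square of 37.3 per degree of freedom, far above sampling noise. Library totals did not order the libraries as Nfu_g_1_006412 did. The 3 libraries where that gene was highest, replicates 3, 8 and 9, had totals of 29247549, 37149070 and 27426712. The 3 where it was lowest, replicates 10, 7 and 1, had totals of 26329657, 28156579 and 36398252.

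The count and level limits were met by 16201 genes. Of these, 330 (2.04%) had an r of at least 0.8 with Nfu_g_1_006412 and 309 (1.91%) had an SD of at least 1. The 117 members are the genes that did both, 37.9% of the 309. The other 213 genes that tracked Nfu_g_1_006412 had a smaller spread, with a median SD of 0.60. No gene of the 309 ran opposite to it at an r of -0.8 or below, and 39 of the 16201 did so at any spread. At the limit on correlation, the member with the lowest r stood at 0.805 and the nearest gene left out at 0.787. At the limit on spread, the narrowest member had an SD of 1.00003 and the nearest gene left out 0.996.

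The limit on counts kept more genes out than there are members. A further 173 genes met the limits on spread and correlation and had a mean of at least 1 CPM, but fell under 10 counts in at least 1 library. Of these, 56 had 0 counts in at least 1 library. For a count of 0 the upper limit was set at 3 counts, a 1-sided limit of about 95%. It came to 0.0808 to 0.129 CPM, depending on the library and for counting error only. Replicate 3 was the highest library in 145 of the 173, and the most abundant reached a mean of 1481 CPM, the only one also above the upper limit on level. At the limit itself, 5 genes had a lowest count of 10 and were members, and 6 had a lowest count of 9 and were not. The 117 are thus the members of a larger tracking group that stayed countable in every library.

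Nfu_g_1_006412 had the widest range of the members. It stood at 2.77 CPM in replicate 10, 3.41 in replicate 7, 6.48 in replicate 1, 202 in replicate 4, 305 in replicate 6, 478 in replicate 5, 881 in replicate 2, 1214 in replicate 9, 1592 in replicate 8 and 3571 in replicate 3. The libraries fell into 3 with single-digit CPM and 7 with 202 CPM or more. The mean was 826 ± 1109.6 CPM (SD, n = 10), and the highest library exceeded the lowest 1288-fold. Even the lowest level rested on 73 counts, with an exact 95% Poisson interval of 2.17 to 3.49 CPM. The intervals of replicates 10 and 7 overlapped, since that of replicate 7 ran from 2.76 to 4.16 CPM, whereas that of replicate 1 began at 5.68 CPM. Per length the gene averaged 119.5 ± 161 RPKM (reads per kilobase of gene per 1e6 counts, restored to each library's own total, SD, n = 10), over an implied length of 6907 bases. It ranked 156 of all genes by mean CPM and 476 by mean RPKM.

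The gene closest to it was Nfu_g_1_013388, with an r of 0.998 over the 10 libraries. It stood at 2.09 CPM in replicate 10, 2.38 in replicate 7, 3.16 in replicate 1, 91.1 in replicate 4, 173 in replicate 5, 184 in replicate 6, 476 in replicate 2, 595 in replicate 9, 609.5 in replicate 8 and 1421 in replicate 3. The order of libraries differed from that of Nfu_g_1_006412 only in replicates 5 and 6. Its slope was 0.91, where the slope is the change in log2(CPM + 1) of a gene per unit of log2(CPM + 1) of Nfu_g_1_006412. Its implied length, 11462 bases, was the longest among the members. The next 4 genes by likeness had r of 0.993 to 0.995 and slopes of 0.59 to 0.80.

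**Figure D1:**
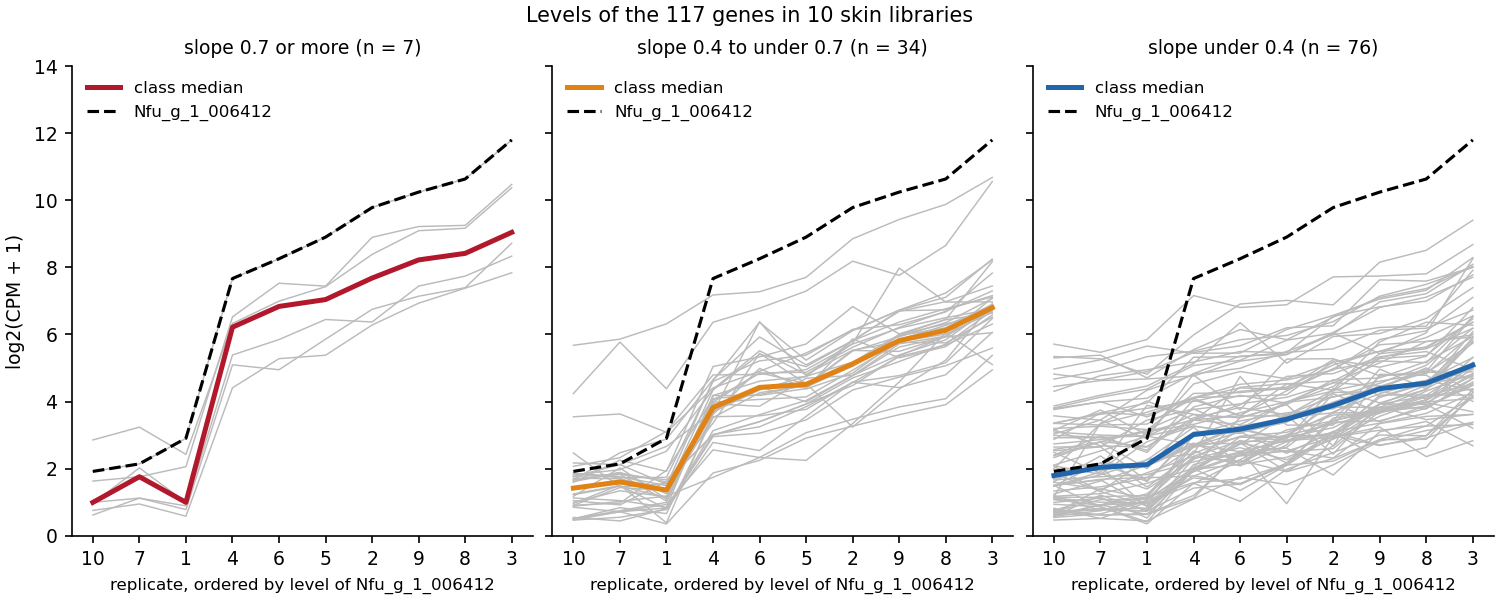
Level of each of the 117 genes as log2(CPM + 1) in 10 libraries, which are placed by the level of Nfu_g_1_006412 from replicate 10 at 1.92 to replicate 3 at 11.80. Grey lines are single genes, the coloured line is the median of the slope class and the dashed line is Nfu_g_1_006412; all 3 medians are higher in each of the 7 libraries from replicate 4 on than in replicates 10, 7 and 1.

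Members differed in how steeply they followed. The median slope was 0.33, from 0.22 to 1. A slope of 0.7 or more was found in 7 members, a slope of 0.4 to under 0.7 in 34 and a slope under 0.4 in 76. Because the rule asks for an SD of at least 1 and an r of at least 0.8, slopes much below 0.22 could not enter, and the large number of shallow members lies against that floor. The steep count was 14 with a pseudocount of 0.1 CPM in place of 1.

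The 7 steep members were low in the same 3 libraries as Nfu_g_1_006412. Their median log2(CPM + 1) was 0.99 in replicate 10, 1.76 in replicate 7 and 0.99 in replicate 1, against 6.22 in replicate 4 and 9.05 in replicate 3. Their fold range between the highest and the lowest library was 304 to 1288, and their r with Nfu_g_1_006412 was at least 0.987. Lowest counts in this class ran from 14 to 159, so the low end is limited by counting.

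The 34 members of middle slope kept a median log2(CPM + 1) of 1.42, 1.60 and 1.36 in replicates 10, 7 and 1, against 3.82 in replicate 4 and 6.80 in replicate 3. Their median fold range was 84.2. The most abundant of them was Nfu_g_1_021842, with a slope of 0.44 and an r of 0.93. It stood at 50.2 CPM in replicate 10, 57.1 in replicate 7, 78.7 in replicate 1, 144 in replicate 4, 154 in replicate 6, 208 in replicate 5, 462 in replicate 2, 689 in replicate 9, 941 in replicate 8 and 1643 in replicate 3. This is the same order of libraries as in Nfu_g_1_006412, with a 32.8-fold range in place of 1288-fold. Its counts were at least 1321 in every library, and the exact 95% Poisson interval of its lowest level was 47.5 to 53.0 CPM. Per length it stood above Nfu_g_1_006412, at 215 ± 252 RPKM (restored, SD, n = 10) over an implied 2059 bases.

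The 76 shallow members were the least variable and the least abundant. Their median mean level was 12.9 CPM, compared with 34.5 CPM in the middle class and 169 CPM in the steep class, and their median fold range was 16.9. Their median r was 0.90, compared with 0.98 in the middle class and 0.99 in the steep class. The slope is r times the SD of the gene, divided by the SD of Nfu_g_1_006412. Lower spread and r are thus partly built into this class. No level is negative on the log2(CPM + 1) scale, so a gene of low level has little room for a steep slope. The lower level of the shallow class is thus partly built in too. The member with the lowest slope, 0.22, was Nfu_g_1_003820, which stood at 2.32 CPM in replicate 10, 3.09 in replicate 7, 13.8 in replicate 1, 11.3 in replicate 4, 7.55 in replicate 6, 9.41 in replicate 5, 18.3 in replicate 2, 18.6 in replicate 9, 16.0 in replicate 8 and 30.4 in replicate 3. Replicate 1 did not belong to its low libraries, and its r of 0.81 was 0.96 without that library. Its r was 0.98 over replicates 6 to 10 and 0.52 over replicates 1 to 5.

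**Figure D2:**
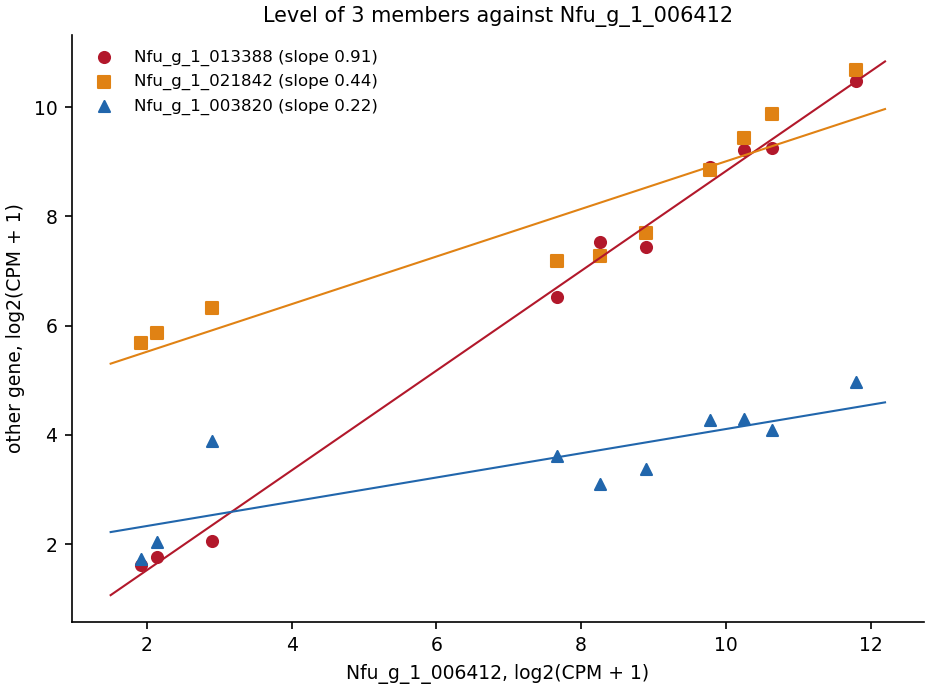
Level of 3 members against Nfu_g_1_006412, both as log2(CPM + 1), with 1 point per library and the least-squares line of each gene. Circles (Nfu_g_1_013388, slope 0.91) lie close to their line, squares (Nfu_g_1_021842, slope 0.44) lie in the same order but bend upward, and triangles (Nfu_g_1_003820, slope 0.22) scatter, with replicate 1 at 3.89 far above its line.

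Straight lines were also fitted on the CPM scale. When the CPM of each member was fitted as a straight line on the CPM of Nfu_g_1_006412, 105 of the 117 members had an r of at least 0.8, and 108 had one without replicate 3, the library with the most weight in such a line. The intercept, which is the level the line gives at 0 CPM of Nfu_g_1_006412, was above 0 in 113 of the other 116 members. It came to a median of 7.67% of the gene's mean CPM in the steep class, 18.5% in the middle class and 37.4% in the shallow class. Without replicate 3 these medians were 5.28%, 11.9% and 36.3%. Both steep medians count Nfu_g_1_006412 itself, whose intercept on its own line is 0 by construction. The other steep members ran from -0.00276% to 26.0% over all 10 libraries. For Nfu_g_1_013388 each 100 CPM of Nfu_g_1_006412 went with 39.8 CPM, and for Nfu_g_1_021842 with 46.3 CPM. On the CPM scale these 2 genes thus had like slopes, and the intercept was 27.3 CPM for Nfu_g_1_013388 and 60.3 CPM for Nfu_g_1_021842. For the shallow Nfu_g_1_003820 the intercept was 57.9% of its mean. The intercept is a property of the line and not a level the gene was seen at. It lay above the measured lowest CPM in 103 of the other 116 members, and Nfu_g_1_013388 was measured at 2.09 to 3.16 CPM in replicates 10, 7 and 1 against its intercept of 27.3 CPM. Slope and intercept were computed from the same values, so the relation is a description of shape.

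**Figure D3:**
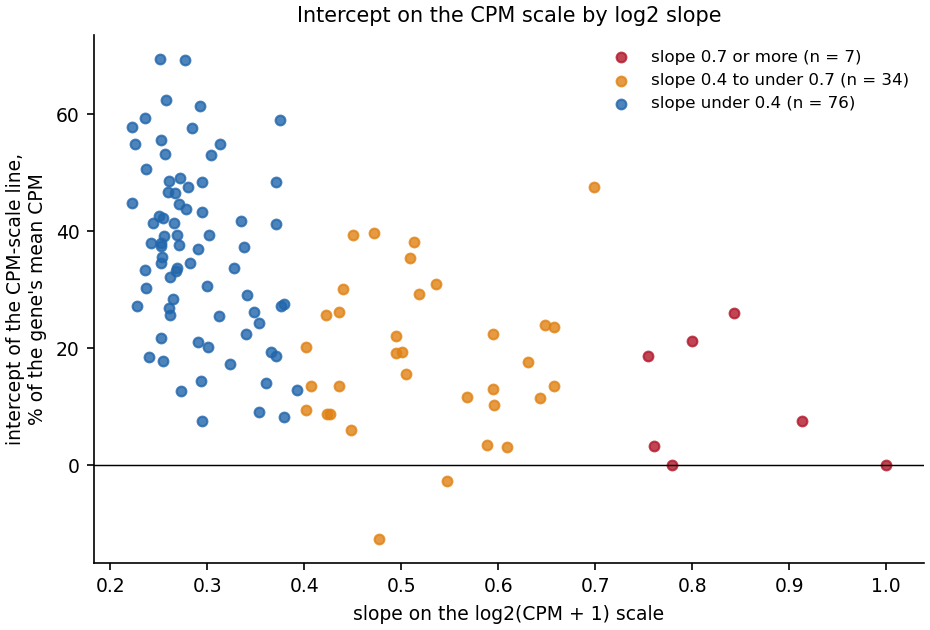
Intercept of each member's CPM-scale line, as a percentage of the gene's mean CPM, against its slope on the log2(CPM + 1) scale; each of the 117 points is a gene and colours are the slope classes. The class medians fall with slope, at 37.4% for the 76 shallow, 18.5% for the 34 middle and 7.67% for the 7 steep members, and the classes overlap. The 7 steep points include Nfu_g_1_006412, whose intercept on its own line is 0 by construction.

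Together the members held 0.0645% of the counts in replicate 10, with an exact 95% binomial interval from 0.0636% to 0.0655%. In replicate 3 they held 2.11%, with an interval from 2.10% to 2.11%. The share was 0.0770% in replicate 7, 0.0802% in replicate 1, 0.226% in replicate 4, 0.322% in replicate 6, 0.366% in replicate 5, 0.617% in replicate 2, 0.887% in replicate 9 and 1.08% in replicate 8. The mean was 0.583% ± 0.640 (SD, n = 10), and the ratio of the highest to the lowest library was 32.7. It was 27.2 without Nfu_g_1_006412 and 16.8 without replicate 3. The binomial intervals cover counting error only and were far narrower than the differences between libraries.

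The make-up of this share shifted with its size. The 7 steep genes supplied 2.21%, 2.66% and 2.13% of the members' counts in replicates 10, 7 and 1, and 37.1% of them in replicate 3. The 76 shallow genes supplied 77.8%, 73.6% and 77.0% in replicates 10, 7 and 1, and 29.3% in replicate 3. The middle class stayed between 20.03% and 33.8% in all 10 libraries. In the 3 low libraries most of the counts of the set thus came from shallow genes, whereas in replicate 3 the steep class supplied the most. Of the members' counts in replicate 3, Nfu_g_1_006412 alone supplied 16.9%. The classes were cut by slope over these same libraries, so the direction of this shift follows from their definition.

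**Figure D4:**
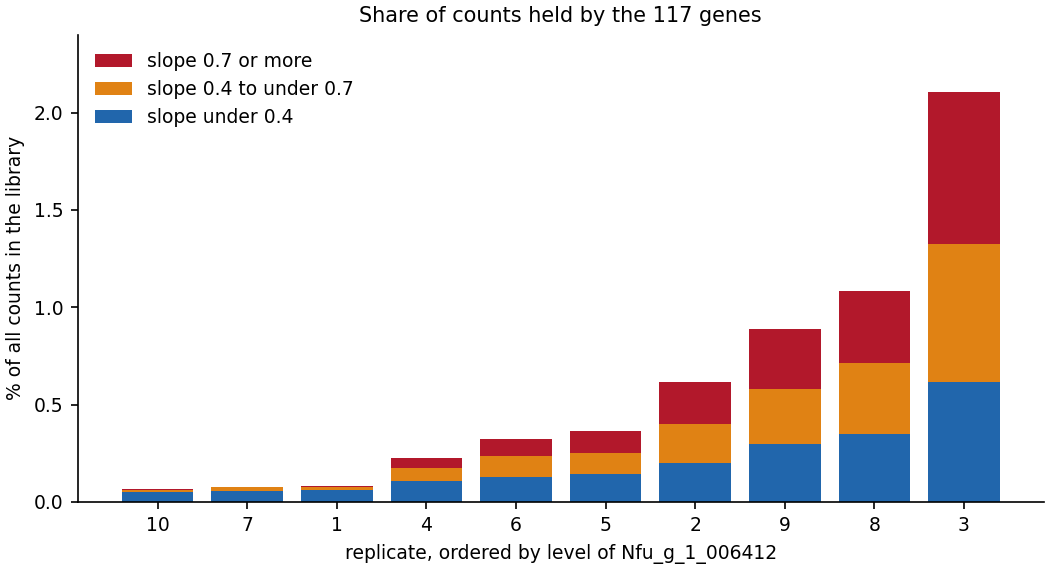
Percentage of all counts in each library held by the 117 genes, stacked by slope class, with libraries placed by the level of Nfu_g_1_006412. The bar of replicate 3 reaches 2.11% and that of replicate 10 reaches 0.0645%; steep genes (top, red) are visible from replicate 4 on.

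Which 3 libraries were lowest was widely shared, but their order among themselves was shared less than that of the 3 highest. Replicate 3 was highest in 102 of the 117 members, against 11.0% of the 16201 genes that met the count and level limits. The lowest library was replicate 10 in 58 members, replicate 1 in 40 and replicate 7 in 19, so all members were lowest in 1 of these 3, against 38.9% of the 16201. In 107 members all 7 other libraries lay above these 3, against 2.10% of the 16201. The rule used these values, so none of these counts is a test. Between neighbours in the order of Nfu_g_1_006412, 105 of the other 116 members were higher in replicate 3 than in replicate 8, 103 were higher in replicate 8 than in replicate 9, and 99 were higher in replicate 9 than in replicate 2. Replicate 2 stood above replicate 5 in 107, replicate 5 above replicate 6 in 83 and replicate 6 above replicate 4 in 93. Replicate 4 stood above replicate 1 in 112, and replicate 7 above replicate 10 in 82. Shares of the 16201 genes are not given for any of the neighbour counts, which thus describe the members only. The step from replicate 1 to replicate 4 was the largest, with a 31.2-fold difference in Nfu_g_1_006412 and a median difference of 1.19 on the log2 scale in the other members. Replicate 1 exceeded replicate 7 in only 60 of 116, although Nfu_g_1_006412 itself was 1.90-fold higher there. The classes differed in this pair, with replicate 1 higher in 1 of the 6 other steep members, 15 of the 34 middle members and 44 of the 76 shallow members.

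Of the members, 15 did not peak in replicate 3. The peak was in replicate 8 for 9 of them, in replicate 9 for 5 and in replicate 2 for 1, and 13 of the 15 were shallow. Their highest level exceeded that in replicate 3 by a median of 1.38-fold and by 2.02-fold at most.

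Lines on Nfu_g_1_006412, fitted to each member separately, took 90.7% of the members' variance of log2(CPM + 1) across libraries. That share counts Nfu_g_1_006412 itself, which lies on its own line by construction. The mean r over the 6786 pairs of members was 0.91, and the lowest was 0.52. The rule asked for an r of at least 0.8 with Nfu_g_1_006412, so these values are partly set by the choice of members. The distances from the lines went mostly one way in several libraries. Without replicate 3 only 76 of the members kept an SD of at least 1. The distances in replicate 3 are thus partly set by the choice of members too. Shares of the 16201 genes above their lines are not given for any library, so the counts that follow describe the members only. In replicate 3, 104 of the other 116 members lay above their own line, by a median of 0.54 log2 units. In replicate 7, 104 lay above it, by a median of 0.28. In replicates 8, 9 and 10, 95, 83 and 86 lay above it, with medians of 0.31, 0.17 and 0.22. In replicates 4, 5, 6 and 2 only 12, 9, 25 and 32 lay above it, with medians of -0.48, -0.42, -0.36 and -0.20. Replicates 4, 6, 5 and 2 lie in the middle of the order of Nfu_g_1_006412. At the low end replicate 1 differed from replicate 7, with 57 of 116 above the line. Class medians there were 0.09 in the shallow, -0.29 in the middle and -0.58 in the steep class. The steep class counts Nfu_g_1_006412 itself, whose distance is 0 in every library by construction. In replicates 3 and 4 that 0 was the class median, which is thus not a measured value. The other steep members lay on both sides of their lines, at -0.39 to 0.43 in replicate 3 and -0.48 to 0.27 in replicate 4.

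**Figure D5:**
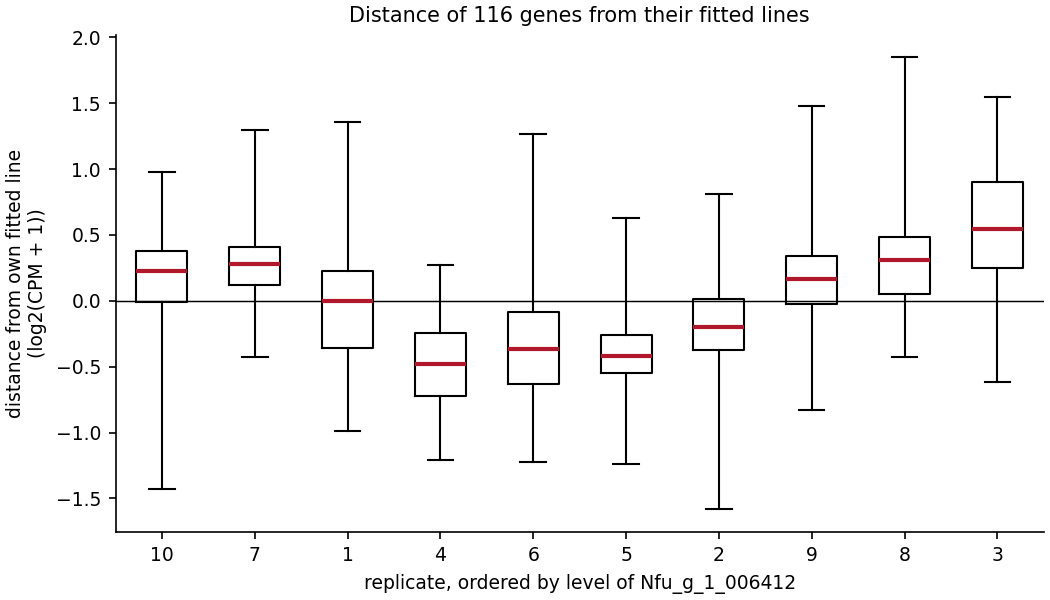
Distance of the other 116 genes from their own fitted lines in each library, in log2(CPM + 1), with libraries placed by the level of Nfu_g_1_006412. Red lines are medians, boxes span the quartiles and whiskers the full range; medians run from -0.48 in replicate 4 to 0.54 in replicate 3.

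The skipped number parts the libraries into 2 runs, replicates 6 to 10 and replicates 1 to 5, which have the same labels otherwise. Many genes differed between them. With edgeR's quasi-likelihood test and Benjamini-Hochberg adjustment, 6916 of 18556 genes (37.3%) passed an adjusted p of 0.05 between replicates 6 to 10 and replicates 1 to 5, with 20.3% higher and 16.9% lower in replicates 6 to 10. Among the members 1 of 117 passed, or 0.855%, with 0 higher and 1 lower in replicates 6 to 10. A wide spread was part of the choice of members, and a gene that varies widely inside each run is less easily called between them. Nfu_g_1_006412 ran from 2.77 to 1592 CPM in replicates 6 to 10 and from 6.48 to 3571 CPM in replicates 1 to 5, so the runs overlapped over most of their range. Its log2 fold change was -0.85 ± 1.68 (SE, n = 5 each, edgeR adjusted p = 0.723). The median log2 fold change of the members was -0.43, compared with -0.03 over all genes tested, and 99 of the 117 had a negative value. That direction rested on replicate 3, without which the median of the members was 0.47 and Nfu_g_1_006412 stood at 0.55.

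The member that passed, singled out after its values were seen, was Nfu_g_1_004395, a shallow gene with a slope of 0.22. It stood at 12.5, 9.91, 28.8, 26.2 and 7.18 CPM in replicates 6 to 10 and at 19.2, 37.8, 91.7, 26.7 and 37.4 CPM in replicates 1 to 5. The runs overlapped, with replicates 8 and 9 above replicate 1. The log2 fold change was -1.44 ± 0.49 (SE, edgeR adjusted p = 0.044), and the adjusted p was between 0.036 and 0.098 when each library was left out. The call was lost without any 1 of replicates 2, 3, 4, 5, 6, 7 and 10, while the log2 fold change stayed negative, at -1.70 to -0.94 over all 10 leave-outs, with -0.94 without replicate 3.

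The members followed Nfu_g_1_006412 inside each run. Over replicates 6 to 10, 116 of the 117 had an r of at least 0.8, against 8.72% of the 16201 genes. Over replicates 1 to 5, 111 had one, against 11.1%. Both held in 110. Median slopes were 0.33 in replicates 6 to 10 and 0.38 in replicates 1 to 5. Both runs entered the rule, so these values describe how the correlation was made up. Each run also held libraries with single-digit CPM of Nfu_g_1_006412. These were replicates 7 and 10 among replicates 6 to 10, and replicate 1 among replicates 1 to 5. A high r inside a run can thus come from low against high libraries, without graded following. The counts include Nfu_g_1_006412 itself, whose r is 1 by construction.

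Length and level of the members are set beside those of other genes. The length implied by counts and RPKM, which the rule did not use, had a median of 3147 bases (quartiles 1969 and 4604) in the 117 members and of 2850 bases (quartiles 1437 and 4895) in the 16201 genes that met the count and level limits. Lengths over 10000 bases were found in 2.56% of the members and in 3.07% of the 16201. The median mean level was 24.0 CPM in the members and 15.2 CPM in the 16201. A mean of 100 CPM or more was reached by 8 members, 75 lay between 10 and 100 CPM and 34 below 10 CPM. No chance test was made on these values.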

How the data were processed

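For 10 skin libraries the authors deposited raw counts of 26739 genes and the same genes as RPKM, with columns matched by title. Libraries were made with Illumina's TruSeq v2 kit, per the labels' protocols. The submitters' processing notes name featureCounts 1.4.6-p4, STAR 2.4.1d and bcl2fastq 1.8.4. Build, annotation and use of strand were not given in the sources used here, so overlapping genes and near-identical copies may share reads. The deposited RPKM were divided by another library's total in 91.3% of the members' cells, by a factor of 0.625 to 1.60, because the 10 totals were cycled down the rows. Over 4151 well-counted genes the implied length then varied by at most 0.00662% between libraries, against a median of 22.4% with the own total. Restored RPKM, rescaled to the own total, were used for levels per length.

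CPM are counts over the column total, and levels are log2(CPM + 1). The 2 runs of sample codes were compared with edgeR 4.0.16 (TMM, filter on low counts, quasi-likelihood test, Benjamini-Hochberg adjustment) in R 4.3.3, with DESeq2 1.42.0 as an alternative. An SE is the log2 fold change over the root of its F statistic. The edgeR comparison was tried on simulated counts, and so were the rule's limits on SD and r, without its limits on counts and level. DESeq2 was not. The simulated counts for edgeR gave all genes the same random spread, so they do not cover genes as variable as the members. Members, slope classes and the split by codes were chosen with earlier results of these data known. Replicates are numbered in record order, as names only. Named genes are Nfu_g_1_006412, the member closest to it, the most abundant other member and the one with the lowest slope. A value without a test counts as moved when it shifts by more than 1 jackknife standard error over libraries. Other steps ran in Python 3.11.15 with pandas 2.3.3, scipy 1.17.1 and numpy 2.4.6.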

Additional observations from a re-analysis of the deposited data

Results flagged for a closer look

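Replicate 3 stood apart on the linear scale. Of 16 library-level measures, 6 had a gap between the highest library and the next that exceeded Dixon's 95% limit for 10 values, as a fraction of their range, and replicate 3 was that library each time. The gap was 0.502 of the range for the share of counts of all 117 members. It was 0.532 for the steep, 0.493 for the middle and 0.471 for the shallow members. For CPM of Nfu_g_1_006412 it was 0.555 and for CPM of Nfu_g_1_013388 it was 0.572. None of the 8 measures on the log2(CPM + 1) scale passed the limit. Chance passes it in about 1 of 20 sets of normally distributed values. That rate need not hold for CPM and shares, whose means lay above their medians here. The 6 measures share the same genes and the members were chosen by their correlation over these libraries, so they are not 6 separate signs. Without replicate 3 only 76 of the 117 members kept an SD of at least 1. Its standing apart in the members' values is thus partly set by the choice of members, and the gaps are a description and no test.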

How the results depend on the processing

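No paired analysis was possible because all libraries belong to the same group. The number of members was 85 to 160, within 1.5 times of 117, under the settings that follow. These were TMM-scaled log2 CPM at a prior count of 2, DESeq2 size factors, and restored or deposited RPKM in place of CPM. They also included a pseudocount of 0.1 CPM, an r of at least 0.7, rank correlation and the mean profile of the members. No upper limit on CPM and levels centred within the runs of codes were the last of them. The TMM setting gave 151 members, and it also replaces the 1 CPM added before the log. DESeq2 size factors, with 1 CPM still added, gave 114. The number of members was 78 at an r of at least 0.9. It was 289 with no minimum count and 58 with a minimum of 50, and it was 46 at an SD of 1.5 and 249 at an SD of 0.5. With each library left out it was 75 to 135, and 74 to 117 of the members met the rule again. The low ends are without replicate 3, where 112 members still had an r of at least 0.8 but 76 had an SD of at least 1. The median slope of 0.33 was 0.37 with TMM-scaled log2 CPM at a prior count of 2 and 0.37 with a pseudocount of 0.1 CPM, and the steep count of 7 was 14 with each; the cause was not tested. With each library left out the slope was 0.30 to 0.34, and the steep, middle and shallow counts were 7 to 8, 27 to 39 and 70 to 82. The ratio of the highest to the lowest share was 16.8 to 32.7 and the fold range of Nfu_g_1_006412 was 574 to 1288, lowest without replicate 3. The 105 members with a CPM-scale r of at least 0.8, an alternative chosen after seeing the data, became 104 to 108. The 1 member called between the runs of codes was also the only one called by DESeq2 or with RLE in place of TMM scaling. Its adjusted p was 0.0045 with DESeq2 and 0.044 with edgeR and RLE. Of all genes tested, 41.9% passed with DESeq2 and 37.9% with edgeR and RLE. With no filter on low counts the number of called members became 0, where 29.4% of all genes tested passed. There the adjustment covered 22693 genes in place of 18556, and the log2 fold change of Nfu_g_1_004395 was -1.38 in place of -1.44. The cause of the lost call was not tested. Leaving out a library gave 0 to 1 called members, where 30.9% to 35.5% of all genes tested passed. Without replicate 3 the log2 fold change of Nfu_g_1_006412 between the runs was 0.55 (range -1.56 to 0.55) and the median of the members 0.47 (range -0.95 to 0.47). With each library left out the r of Nfu_g_1_013388 was 0.997 to 0.998 (0.995 with restored RPKM), that of Nfu_g_1_021842 0.91 to 0.95 and that of Nfu_g_1_003820 0.73 to 0.96. Depth limits the genes at the low end: 42 members had under 30 counts in their lowest library.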
